A study of Homo sapiens with 6 samples.

Results

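Collagens are the fibre- and sheet-forming proteins of the extracellular matrix, and the genes described here are their chains together with the enzymes and the chaperone that modify, fold and cross-link them. Members were defined by gene symbol, and the list was set with earlier results of these data known. It took protein-coding genes named COL, digits, A, digits, plus the collagen prolyl 4-hydroxylases P4HA1 to P4HA3, the lysyl hydroxylases PLOD1 to PLOD3, the lysyl oxidases LOX and LOXL1 to LOXL4, and SERPINH1. Of 60675 gene rows in the count table, 56 carried such a symbol and 51 of these had 30 or more reads over all 6 libraries, namely 39 chains and 12 processing genes. COL15A1, with 34 reads in total, lay just inside that limit and COL9A1, with 29, just outside it. The other genes left out were COL1A2 (24 reads), COL10A1 (14), COL8A2 (12) and COL11A1 (1).

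The RNA came from HEK293, an established cell line of human embryonic kidney origin. In the design, 3 libraries are marked as control with a wild type genotype, 3 as MOCS2 RNAi knockdown, and both kinds of cell were grown in high-glucose DMEM with fetal bovine serum and Geneticin. MOCS2 encodes the subunits of molybdopterin synthase, which makes the molybdenum cofactor. The labels do not name the RNAi construct, the control construct or the number of clones, nor do they say that replicates were separate cultures, so p-values measure the spread between these libraries, which may be technical.

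A collagen molecule is a triple helix of chains built from repeats of glycine followed by other residues, often proline. In the endoplasmic reticulum, prolyl 4-hydroxylases hydroxylate prolines, which stabilises the helix, lysyl hydroxylases modify lysines, and the chaperone SERPINH1 (HSP47) binds the folded procollagen. After secretion, lysyl oxidases convert lysines to aldehydes that form covalent cross-links. Fibrillar chains make fibrils, type IV chains make the network of basement membranes, type VI chains make beaded microfilaments, and fibril-associated chains decorate fibril surfaces. Basement membrane under kidney epithelium is rich in type IV collagen.

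Reads in genes ranged from 17958632 to 22171106 per library. MOCS2, the targeted gene, stood at 57.8, 66.6 and 65.6 CPM in control 1, 2 and 3, with 69.8, 58.9 and 59.9 CPM in labelled knockdown library 1, 2 and 3 (log2 fold change -0.0095 with a standard error of 0.14, adjusted p = 0.976 by edgeR), so its RNA was not lower and the comparison is given by label, as libraries labelled knockdown against controls. CPM are reads of a gene per 1000000 reads, scaled between libraries by TMM factors. Means are given ± SD over 3 libraries, the controls first and the libraries labelled knockdown second. The library labelled knockdown 2 had 37.5% of its uniquely placed reads outside genes, a share that ran from 21.5% to 24.95% elsewhere. Genes typical of HEK293 were present, such as KRT18 at 167, 131 and 171 CPM in controls, while PAX8 was at 0.270, 0.135 and 0.201 CPM. Of 11 such genes, 10 were tested. At an unadjusted edgeR p under 0.05, 1 was higher (10%, against 9.93% of all genes) and 2 were lower (20%, against 10.6%). VIM was the higher one (805 ± 123 against 1277 ± 255 CPM). NEFL (160 ± 6.01 against 125 ± 8.80 CPM) and LHX1 (11.2 ± 1.18 against 6.54 ± 2.01 CPM) were lower. Among markers of other cell types, the fibroblast genes THY1 and FAP, the endothelial gene CDH5 and the leukocyte gene PTPRC were each at or below 0.425 CPM in every library. Other genes of these lists were present, such as the fibroblast markers PDPN (39.9 ± 3.65 against 39.1 ± 4.57 CPM) and TWIST1 (18.01 ± 0.389 against 15.2 ± 2.79 CPM), the leukocyte marker CD14 (1.13 ± 0.499 against 1.81 ± 0.702 CPM) and the endothelial marker KDR (2.35 ± 0.628 against 0.918 ± 0.518 CPM). KDR was lower in all 3 libraries labelled knockdown, without overlap. The 4 endothelial markers summed to 3.24 to 4.38 CPM in controls and 1.58 to 3.51 CPM in the others, and the 4 leukocyte markers to 0.808 to 2.25 and 1.53 to 4.36 CPM. Of 13 fibroblast markers, 10 were tested, 2 (20%, against 20.5% of all genes in either direction) had an unadjusted p under 0.05, and both were lower (LUM, 11.9 ± 4.71 against 1.90 ± 0.685 CPM, and PDGFRA, 3.51 ± 1.72 against 0.891 ± 0.528 CPM). The 13 fibroblast markers summed to 116 to 136 CPM in controls and 104 to 172 CPM in the libraries labelled knockdown, highest in knockdown 2. Of these markers, ACTA2 stood at 66.8 CPM in knockdown 2 and at 11.03 to 18.2 CPM in the other libraries. The part of these markers in the collagen values was not tested. A low level in bulk RNA cannot separate fewer cells that express a gene from less RNA in each.

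Of the 51 members, 46 passed the low-count filter of the test, and the 5 that did not (COL15A1, COL17A1, COL20A1, COL22A1 and COL23A1) averaged 0.278 to 0.473 CPM over the 6 libraries. Passing the filter depends on expression in at least 1 group, so the 46 are not all members. No member reached an edgeR adjusted p of 0.05 over the 18267 genes tested, and neither did any other gene (0% of genes called). At an unadjusted p of 0.05, 6 of 46 members (13.04%) were higher, where 9.93% of all genes were, and 10 of 46 (21.7%) were lower, where 10.6% of all genes were. Both directions together made 34.8% of the members and 20.5% of all genes. The count of lower members moved with single libraries, as did the share of all genes. It was 3 of 47 tested without control 2, where 5.6% of all genes were lower, and 5 of 47 without knockdown 1, where 6.32% were. It was 9 of 47 without control 1 (7.33% of all genes) and 8 of 46 without control 3 (7.58%). Without knockdown 2 it was 15 of 46 (11.2%), and without knockdown 3 it was 12 of 47 (16.4%). The higher members were COL6A3, COL12A1, COL5A3, LOXL3, COL11A2 and LOX. The lower members were COL4A3, COL4A4, COL4A5, COL4A6, COL6A1, COL14A1, COL21A1, COL2A1, PLOD2 and P4HA1. The groups did not overlap in 5 members above the controls, 10.9% against 12.5% of all genes, and in 8 members below them, 17.4% against 14.3% of all genes. These shares without overlap were near those of all genes in both directions. The median log2 fold change of the members was -0.13, beside 0.017 over all genes tested. By library, the members' median log2 CPM relative to the control mean was -0.32, -0.0025 and -0.20 in the libraries labelled knockdown 1, 2 and 3, so knockdown 2 was level with the controls. The median log2 fold change of the members was -0.33 without knockdown 2 and -0.026 without knockdown 3. The same median over all genes lay between -0.0034 and 0.0110 in these libraries.

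**Figure D1:**
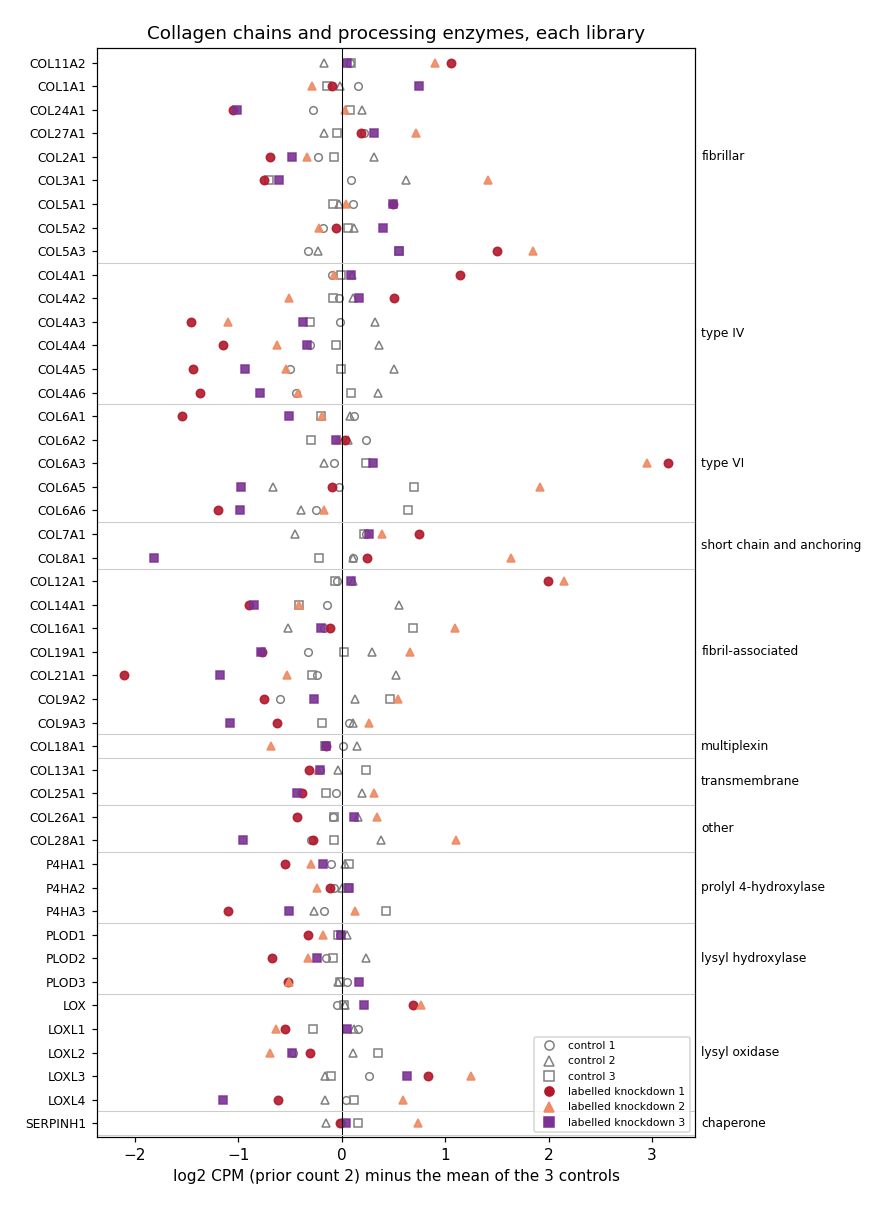
Each row is one of the 46 tested members, grouped by role, and the x axis gives log2 CPM minus the mean of the 3 controls (log2 CPM with a prior count of 2), with controls as open grey symbols and filled symbols for the libraries labelled knockdown. COL6A3 and COL12A1 lie far to the right in knockdown 1 and 2 and within or next to the controls in knockdown 3.

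Levels can be compared between genes only per length, here as CPM per kilobase of merged exons. On that scale the processing genes led: P4HA1 averaged 22.6 ± 1.40 in controls, SERPINH1 19.3 ± 2.09, PLOD2 18.3 ± 2.73 and PLOD1 16.3 ± 0.550 (SD, n = 3). SERPINH1 and PLOD2, and likewise PLOD2 and PLOD1, lay within one another's spread. On that scale the chains highest in controls were COL14A1 at 9.66 ± 3.53, COL4A1 at 8.80 ± 0.570, COL4A2 at 7.57 ± 0.532, COL6A1 at 7.33 ± 0.847 and COL6A2 at 6.50 ± 1.19 CPM per kilobase. Of these neighbours, COL4A1 and COL4A2 alone lay outside one another's spread. Merged exons join all annotated transcripts: 19.3 kilobases for COL4A2, 14.7 for COL4A1 and 8.65 for COL14A1. The order of chains, the place of the processing genes and the sums below therefore depend on the length used. In CPM without length, control means were 146 for COL4A2, 130 for COL4A1 and 83.5 for COL14A1. Summed over the 39 chains, the level was 73.8, 92.9 and 72.6 CPM per kilobase in control 1, 2 and 3 and 79.8, 81.7 and 64.5 across labelled knockdown libraries, which overlap. Type IV chains made up 34.6, 37.5 and 39.6% of that sum in controls and 44.02, 27.4 and 39.96% across labelled knockdown libraries. The type IV share was highest in knockdown 1 and lowest in knockdown 2, with all 3 controls and knockdown 3 between them.

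Type IV collagen, the scaffold of basement membranes, had 4 of its 6 chains lower at an unadjusted edgeR p under 0.05 and 0 higher, where 10.6% of all genes were lower and 9.93% higher. Its genes lie as 3 head-to-head pairs that are transcribed away from each other. The protein chains combine as COL4A1 with COL4A2 in most basement membranes, as COL4A3 with COL4A4 and COL4A5 in the glomerulus, and as COL4A5 with COL4A6 in other epithelia. The 4 lower chains made up both pairs other than COL4A1 and COL4A2. RefSeq places the starts of COL4A1 and COL4A2 127 bases apart, those of COL4A5 and COL4A6 380 bases apart and those of COL4A3 and COL4A4 419 bases apart.

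One promoter window of each pair is shown because the genes of a head-to-head pair share their upstream DNA. Each runs from 250 bases before to 50 after the RefSeq start of the named gene (GRCh38.p14), 5′ to 3′ on that gene's strand: COL4A2 at chr13:110307034-110307333, plus strand, COL4A3 at chr2:227164374-227164673, plus strand and COL4A6 at chrX:108439409-108439708, minus strand. Capitals mark CCAAT on either strand, a promoter element bound by the factor NF-Y.
COL4A2: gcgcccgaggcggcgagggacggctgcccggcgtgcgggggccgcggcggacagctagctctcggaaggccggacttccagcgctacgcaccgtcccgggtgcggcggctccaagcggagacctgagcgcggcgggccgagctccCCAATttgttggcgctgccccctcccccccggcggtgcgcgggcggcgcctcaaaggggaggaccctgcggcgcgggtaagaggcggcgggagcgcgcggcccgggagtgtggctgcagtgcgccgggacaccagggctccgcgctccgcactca
COL4A3: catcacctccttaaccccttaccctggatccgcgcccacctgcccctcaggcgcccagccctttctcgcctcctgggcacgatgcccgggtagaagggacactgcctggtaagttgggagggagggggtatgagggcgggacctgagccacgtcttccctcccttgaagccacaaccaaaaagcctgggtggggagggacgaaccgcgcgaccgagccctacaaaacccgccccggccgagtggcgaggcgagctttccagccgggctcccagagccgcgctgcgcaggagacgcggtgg
COL4A6: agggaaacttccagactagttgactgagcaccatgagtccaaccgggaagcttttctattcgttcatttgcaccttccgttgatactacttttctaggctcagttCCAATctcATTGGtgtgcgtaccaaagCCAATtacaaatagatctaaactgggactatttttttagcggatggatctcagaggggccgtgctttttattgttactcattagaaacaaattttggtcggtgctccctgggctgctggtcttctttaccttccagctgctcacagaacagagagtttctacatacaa
The COL4A6 window holds 3 matches, the COL4A2 window 1 and the COL4A3 window 0, and 34.6% of 35116 RefSeq windows of this length hold at least 1. G and C made up 77.7% of the COL4A2 window, 67.7% of the COL4A3 window and 43.7% of the COL4A6 window, so the windows differ widely in composition. A match is a description of the letters and not a measured site.

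COL4A5 (ENSG00000188153, chromosome X, 108439844 to 108697545, plus strand, GRCh38) stood at 47.1, 95.1 and 66.7 CPM in control 1, 2 and 3, with 24.6, 46.1 and 35.03 CPM in labelled knockdown library 1, 2 and 3. Every library labelled knockdown lay below every control, though knockdown 2 only just below control 1, and control 2 was high (log2 fold change -0.98 with a standard error of 0.28, adjusted p = 0.11 by edgeR). Its partner COL4A6 (ENSG00000197565, chromosome X, 108155607 to 108439497, minus strand) stood at 26.2, 45.3 and 37.96 CPM across controls, with 13.7, 26.6 and 20.6 CPM across labelled knockdown libraries (log2 fold change -0.84 with a standard error of 0.26, adjusted p = 0.129 by edgeR). Here knockdown 2 lay just above control 1, so the groups overlap. The ratio of COL4A5 to COL4A6 per length was 1.40, 1.64 and 1.37 in controls and 1.40, 1.35 and 1.33 across labelled knockdown libraries: the chains of this pair differed between libraries in nearly the same proportion.

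COL4A3 (ENSG00000169031, chromosome 2, 227164565 to 227314792, plus strand) stood at 11.1, 14.01 and 9.01 CPM across controls, with 4.01, 5.16 and 8.60 CPM across labelled knockdown libraries (log2 fold change -0.94 with a standard error of 0.30, adjusted p = 0.137 by edgeR). Its values were lowest in knockdown 1 and 2, and knockdown 3 lay just under the lowest control. COL4A4 (ENSG00000081052, chromosome 2, 227002711 to 227164453, minus strand) had the same order of libraries within the labelled knockdown group, at 18.4, 29.3 and 21.9 CPM across controls, with 10.2, 14.8 and 18.1 CPM across labelled knockdown libraries (log2 fold change -0.69 with a standard error of 0.24, adjusted p = 0.158 by edgeR). Neither gene's groups overlap. A lowly counted antisense gene, AC097662.1, lies opposite COL4A3 and stood at 1.17, 1.53 and 1.11 CPM across controls, with 1.13, 1.86 and 2.16 CPM across labelled knockdown libraries, and the sources used here do not say whether reads were assigned by strand. Without knockdown 3 the log2 fold changes were -1.31 for COL4A3 (edgeR adjusted p = 0.00952) and -0.90 for COL4A4 (edgeR adjusted p = 0.0325). Without control 2 they were -0.76 (edgeR adjusted p = 0.473) and -0.49 (edgeR adjusted p = 0.527).

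COL4A1 and COL4A2, the ubiquitous chains, gave values of another kind: the groups overlap for both. COL4A1 (ENSG00000187498, chromosome 13, 110148963 to 110307233, minus strand) stood at 122, 138 and 129 CPM across controls, with 286, 123 and 138 CPM across labelled knockdown libraries (log2 fold change 0.49 with a standard error of 0.28, adjusted p = 0.338 by edgeR), and its mean rests on knockdown 1, without which the log2 fold change was 0.0062. COL4A2 (ENSG00000134871, chromosome 13, 110305812 to 110513209, plus strand) stood at 143, 157 and 137 CPM across controls, with 207, 102 and 163 CPM across labelled knockdown libraries (log2 fold change 0.11 with a standard error of 0.23, adjusted p = 0.814 by edgeR). It was highest in knockdown 1 and lowest in knockdown 2, on either side of the controls, and its log2 fold change turned to -0.14 without knockdown 1. Per length, the ratio of COL4A1 to COL4A2 was 1.11, 1.15 and 1.23 in controls and 1.80, 1.57 and 1.11 across labelled knockdown libraries, above every control in knockdown 1 and 2 and level with them in knockdown 3. The annotated genes overlap at their starts on opposite strands, so reads there depend on the strand setting.

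**Figure D2:**
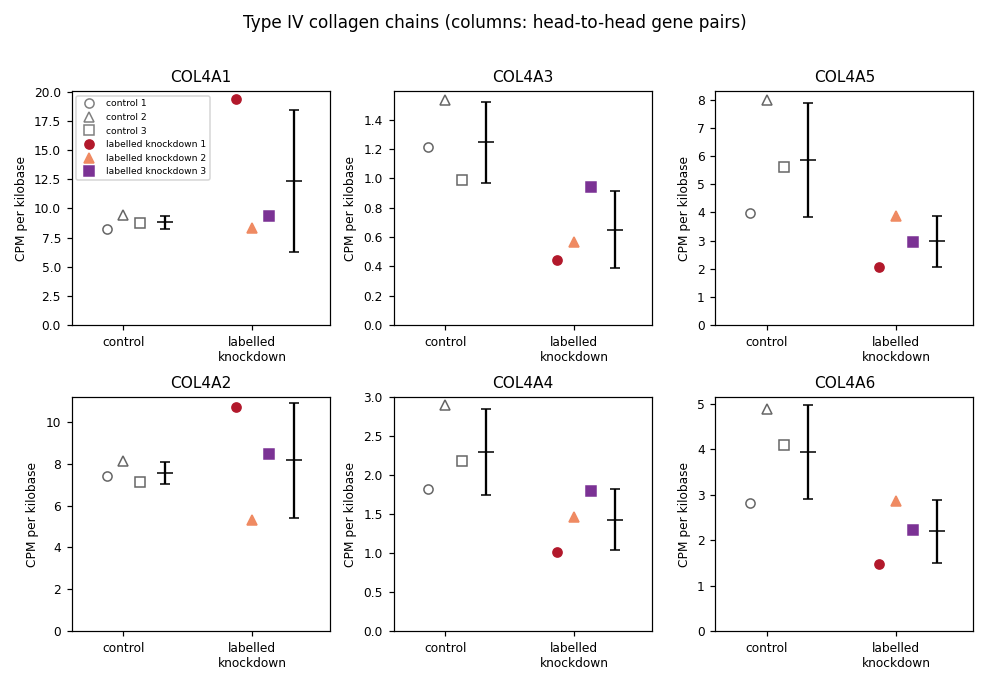
Levels of the 6 type IV chains in CPM per kilobase, with each head-to-head pair in one column, a symbol for each library and a bar for the mean with its SD (n = 3). COL4A3, COL4A4, COL4A5 and COL4A6 sit lower in the libraries labelled knockdown, with a narrow overlap in COL4A6, and COL4A1 and COL4A2 are high in knockdown 1.

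Type VI collagen is assembled from COL6A1, COL6A2 and 1 further chain, most often the long COL6A3. COL6A3 (ENSG00000163359, chromosome 2, 237324003 to 237414375, minus strand) had the highest log2 fold change of the tested members and stood at 0.629, 0.584 and 0.805 CPM in control 1, 2 and 3, with 6.73, 5.85 and 0.844 CPM in labelled knockdown library 1, 2 and 3. Knockdown 1 and 2 were several times the controls, while knockdown 3 was just above the highest control (log2 fold change 2.72 with a standard error of 0.63, adjusted p = 0.0895 by edgeR). Without knockdown 3 the log2 fold change was 3.21 (edgeR adjusted p = 0.000419), and DESeq2 on all 6 libraries gave an adjusted p of 0.000322. The log2 fold change was 2.63 without control 2 (edgeR adjusted p = 0.408) and 2.30 without knockdown 1 (edgeR adjusted p = 0.351). COL6A1 stood at 42.2, 41.3 and 33.98 CPM across controls, with 13.3, 34.2 and 27.4 CPM across labelled knockdown libraries (log2 fold change -0.65 with a standard error of 0.28, adjusted p = 0.229 by edgeR). Its low mean rests largely on knockdown 1, and knockdown 2 lay inside the control range. The log2 fold change of COL6A1 was -0.35 without knockdown 1. COL6A2 stood at 40.8, 36.1 and 28.1 CPM across controls, with 35.4, 33.7 and 33.4 CPM across labelled knockdown libraries (log2 fold change -0.036 with a standard error of 0.17, adjusted p = 0.926 by edgeR), all within the control range. Per length, COL6A3 was 0.00405, 0.00385 and 0.00645 times COL6A1 in controls and 0.137, 0.0466 and 0.00837 times in the libraries labelled knockdown, so it was the scarce chain in every library. The chains that can take the place of COL6A3 were also scarce: COL6A5 averaged 2.68 ± 1.29 against 4.38 ± 4.57 CPM and COL6A6 1.09 ± 0.494 against 0.591 ± 0.273 CPM, and the groups overlap for both.

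Fibril-associated chains went both ways. COL12A1 (ENSG00000111799, chromosome 6, 75084326 to 75206051, minus strand), which binds type I fibrils in tissues under load, stood at 37.4, 41.6 and 36.95 CPM in control 1, 2 and 3, with 154, 172 and 41.1 CPM in labelled knockdown library 1, 2 and 3. Knockdown 1 and 2 lay far above the controls, and knockdown 3 lay within them (log2 fold change 1.66 with a standard error of 0.40, adjusted p = 0.0976 by edgeR). Without knockdown 3 the log2 fold change was 2.07 (edgeR adjusted p = 0.000103). It was 1.71 without control 2 (edgeR adjusted p = 0.408) and 1.45 without knockdown 1 (edgeR adjusted p = 0.351). DESeq2 on all 6 libraries gave an adjusted p of 0.0567. COL14A1, a close relative of COL12A1 that also binds fibrils, stood at 72.5, 118 and 60.01 CPM across controls, with 43.03, 60.1 and 44.5 CPM across labelled knockdown libraries (log2 fold change -0.76 with a standard error of 0.24, adjusted p = 0.136 by edgeR). Its groups overlap by a narrow margin, between control 3 and knockdown 2, and control 2 was high: the log2 fold change was -0.43 without it. The ratio of COL12A1 to COL14A1 per length was 0.358, 0.244 and 0.427 in controls and 2.49, 1.98 and 0.639 across labelled knockdown libraries. COL14A1 was therefore the more abundant of the pair in all controls and in knockdown 3, and COL12A1 in knockdown 1 and 2. COL21A1, another fibril-associated chain, stood at 14.02, 24.02 and 13.6 CPM across controls, with 3.79, 11.5 and 7.28 CPM across labelled knockdown libraries, with every labelled knockdown value below every control (log2 fold change -1.19 with a standard error of 0.37, adjusted p = 0.126 by edgeR). Of the other members of this class, COL9A2, COL9A3, COL16A1 and COL19A1 had unadjusted p-values above 0.05, with log2 fold changes from -0.40 to 0.35. COL9A3 (155 reads in total) overlaps TCFL5 (2143 reads) and COL19A1 (1117 reads) overlaps LMBRD1 (4473 reads), both on the opposite strand. The part of TCFL5 and LMBRD1 in these values was not tested.

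The promoter windows of COL12A1 and COL6A3 are printed because these members were the ones furthest above the controls (GRCh38.p14, chr6:75206004-75206303, minus strand, and chr2:237414115-237414414, minus strand). Capitals mark GGAATG on either strand, a motif bound by TEAD factors, and CCAAT.
COL12A1: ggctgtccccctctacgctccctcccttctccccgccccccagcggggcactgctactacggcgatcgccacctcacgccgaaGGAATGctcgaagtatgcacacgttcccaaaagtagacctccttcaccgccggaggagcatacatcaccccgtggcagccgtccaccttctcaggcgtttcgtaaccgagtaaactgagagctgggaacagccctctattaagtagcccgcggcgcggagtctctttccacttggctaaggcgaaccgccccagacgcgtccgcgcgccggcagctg
COL6A3: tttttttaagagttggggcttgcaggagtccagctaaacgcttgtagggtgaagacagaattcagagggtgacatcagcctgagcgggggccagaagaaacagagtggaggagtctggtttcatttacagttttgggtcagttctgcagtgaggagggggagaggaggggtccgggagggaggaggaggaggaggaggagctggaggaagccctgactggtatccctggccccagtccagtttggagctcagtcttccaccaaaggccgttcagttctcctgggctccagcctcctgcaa
The COL12A1 window holds 1 GGAATG and the COL6A3 window holds neither motif. GGAATG stood in 14% of all windows, and in at least 1 window of 4 of the 38 kept members that the table matched: COL11A2, COL12A1, LOXL3 and P4HA2. Some genes have several windows, so the count of genes and the share of windows are not on one scale. The AP-1 site TGANTCA stood in 7.71% of all windows and in those of 0 of the 38 members.

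**Figure D3:**
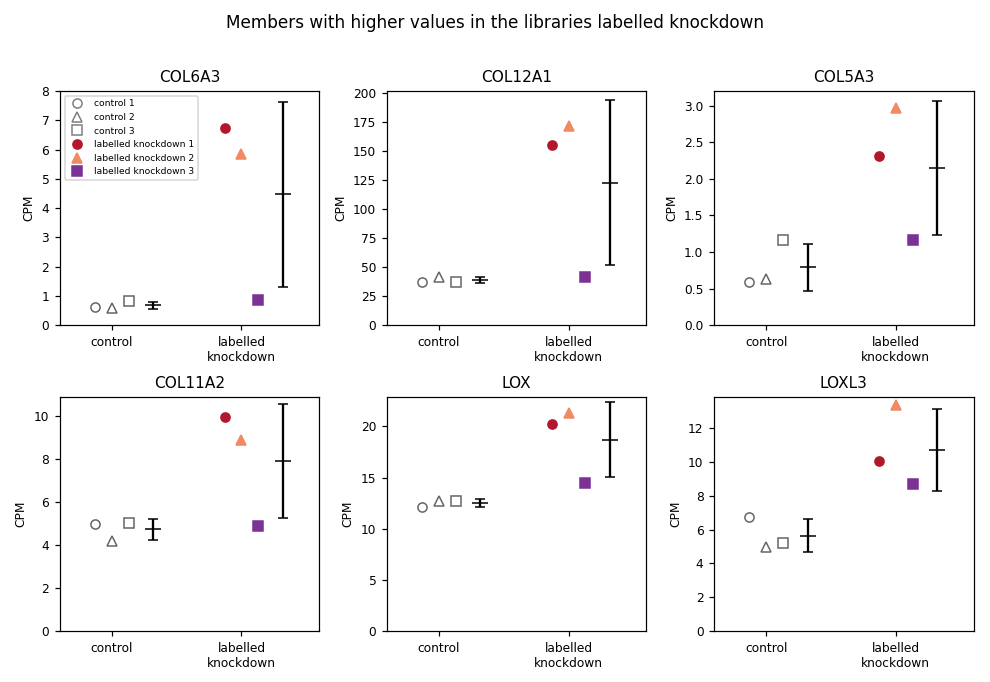
Levels in CPM of the 6 members that were higher at an unadjusted p under 0.05, by library, with the mean and SD of each group (n = 3). In COL6A3, COL12A1, COL5A3, COL11A2 and LOX, knockdown 3 lies near the controls and knockdown 1 and 2 above them, and in LOXL3 all 3 lie above.

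Among fibrillar chains, COL2A1, the chain of cartilage type II collagen, was the most abundant per length in controls (5.58 ± 1.12 CPM per kilobase). It stood at 31.2, 45.5 and 34.8 CPM across controls, with 22.6, 29.02 and 26.3 CPM across labelled knockdown libraries, lower in all 3 libraries labelled knockdown (log2 fold change -0.52 with a standard error of 0.18, adjusted p = 0.159 by edgeR). COL5A3 (ENSG00000080573, chromosome 19, 9959561 to 10010471, minus strand), a minor type V chain, stood at 0.584, 0.629 and 1.16 CPM across controls, with 2.32, 2.98 and 1.16 CPM across labelled knockdown libraries (log2 fold change 1.45 with a standard error of 0.43, adjusted p = 0.12 by edgeR). Knockdown 3 (22 reads) was level with control 3 (23 reads) once scaled to depth, so the groups hardly stand apart. The type XI chain COL11A2 stood at 4.99, 4.18 and 5.03 CPM across controls, with 9.95, 8.88 and 4.91 CPM across labelled knockdown libraries (log2 fold change 0.74 with a standard error of 0.29, adjusted p = 0.189 by edgeR), with knockdown 3 inside the control range. COL27A1, a large fibrillar chain, stood at 13.2, 10.1 and 11.1 CPM across controls, with 13.01, 18.8 and 14.2 CPM across labelled knockdown libraries (log2 fold change 0.42 with a standard error of 0.21, adjusted p = 0.283 by edgeR). COL1A1, the main chain of type I collagen, averaged 5.82 ± 0.621 against 6.66 ± 2.76 CPM, while COL1A2, its usual partner, had 2 to 9 reads per library. The main type V chains COL5A1 and COL5A2 averaged 7.02 ± 0.517 against 9.01 ± 1.55 CPM and 5.91 ± 0.658 against 6.17 ± 1.45 CPM. The type III chain COL3A1 averaged 3.94 ± 1.74 against 4.82 ± 4.43 CPM. COL24A1 averaged 9.23 ± 1.55 against 6.06 ± 2.85 CPM. None of COL1A1, COL3A1, COL5A1, COL5A2 and COL24A1 had an unadjusted p under 0.05.

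The remaining chain classes held no member with an unadjusted p under 0.05. COL18A1, a basement membrane chain and the source of endostatin, stood at 26.2, 28.9 and 23.2 CPM across controls, with 23.4, 16.2 and 23.4 CPM across labelled knockdown libraries (log2 fold change -0.31 with a standard error of 0.19, adjusted p = 0.372 by edgeR). COL18A1 (2847 reads in total) overlaps SLC19A1 (5732 reads) on the opposite strand, and the part of SLC19A1 in these values was not tested. COL7A1, which forms anchoring fibrils, stood at 7.01, 4.31 and 6.90 CPM across controls, with 10.01, 7.81 and 7.12 CPM across labelled knockdown libraries, above every control in each library labelled knockdown (log2 fold change 0.45 with a standard error of 0.26, adjusted p = 0.349 by edgeR). COL8A1 averaged 1.37 ± 0.187 against 2.14 ± 2.12 CPM, a mean that rests on knockdown 2, and its log2 fold change moved from 0.64 to -0.52 without that library. The transmembrane chains COL25A1 and COL13A1 averaged 15.2 ± 1.94 against 13.8 ± 4.28 CPM and 2.78 ± 0.452 against 2.31 ± 0.0891 CPM. COL26A1 and COL28A1 averaged 3.94 ± 0.402 against 4.05 ± 1.07 CPM and 0.929 ± 0.255 against 1.08 ± 0.877 CPM.

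**Figure D4:**
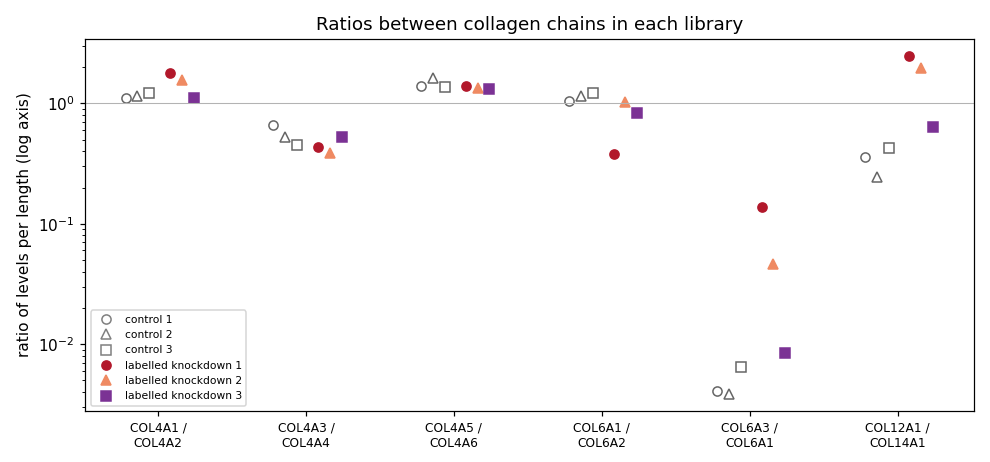
Ratios of levels per length between pairs of chains in each library, on a log axis. The ratio of COL4A5 to COL4A6 stays between 1.33 and 1.64 in all 6 libraries, while COL6A3 relative to COL6A1 and COL12A1 relative to COL14A1 are highest in knockdown 1 and 2.

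The prolyl 4-hydroxylases and lysyl hydroxylases modify collagen inside the cell. P4HA1, a catalytic subunit of prolyl 4-hydroxylase, stood at 64.99, 71.3 and 73.2 CPM across controls, with 47.6, 56.8 and 61.4 CPM across labelled knockdown libraries, with no overlap between groups (log2 fold change -0.34 with a standard error of 0.15, adjusted p = 0.234 by edgeR). P4HA2, the alternative subunit, averaged 41.9 ± 2.02 against 39.4 ± 4.18 CPM and P4HA3 0.740 ± 0.232 against 0.518 ± 0.260 CPM. PLOD2, which hydroxylates lysines in the telopeptides, stood at 125, 163 and 131 CPM across controls, with 86.6, 111 and 118 CPM across labelled knockdown libraries, again without overlap (log2 fold change -0.41 with a standard error of 0.17, adjusted p = 0.215 by edgeR). PLOD1, which acts on helical lysines, averaged 86.7 ± 2.92 against 77.3 ± 8.61 CPM, and PLOD3, which also adds sugars, 32.5 ± 1.06 against 27.3 ± 7.95 CPM. All 6 hydroxylases had a negative log2 fold change, from -0.49 (P4HA3) to -0.088 (P4HA2), and P4HA1 and PLOD2 had an unadjusted p under 0.05. The shared sign was not tested against the share of all genes with a negative value. For P4HA2, P4HA3, PLOD1 and PLOD3 the groups overlap, with standard errors of 0.15, 0.46, 0.14 and 0.20. On the opposite strand, P4HA3 (76 reads in total) overlaps PPME1 (6001 reads) and PLOD3 (3614 reads) overlaps ZNHIT1 (8252 reads). The part of PPME1 and ZNHIT1 in these values was not tested. SERPINH1 stood at 120.2, 109 and 135 CPM across controls, with 119, 202 and 125 CPM across labelled knockdown libraries (log2 fold change 0.29 with a standard error of 0.21, adjusted p = 0.444 by edgeR), and its higher mean rests on knockdown 2, without which the log2 fold change was 0.0025.

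Of the lysyl oxidases, the secreted cross-linking enzymes, LOXL3 and LOX had a positive log2 fold change and LOXL1, LOXL2 and LOXL4 a negative one. LOXL3 (ENSG00000115318, chromosome 2, 74532414 to 74555690, minus strand) stood at 6.74, 4.98 and 5.19 CPM across controls, with 10.1, 13.4 and 8.71 CPM across labelled knockdown libraries, higher in all 3 libraries labelled knockdown (log2 fold change 0.93 with a standard error of 0.24, adjusted p = 0.105 by edgeR, and 0.0124 by DESeq2). LOX (ENSG00000113083, chromosome 5, 122063195 to 122078360, minus strand) stood at 12.1, 12.8 and 12.7 CPM across controls, with 20.2, 21.3 and 14.5 CPM across labelled knockdown libraries, also without overlap (log2 fold change 0.58 with a standard error of 0.19, adjusted p = 0.146 by edgeR). On the opposite strand, LOX overlaps SRFBP1, which stood at 49.4, 45.7 and 48.5 CPM across controls, with 90.6, 67.1 and 62.6 CPM across labelled knockdown libraries and so was higher in the same libraries (log2 fold change 0.62 with a standard error of 0.17, adjusted p = 0.107 by edgeR). SRFBP1 has more reads than LOX, and its part in the LOX value was not tested. LOXL3 also overlaps HTRA2 and DOK1, on the opposite strand, at log2 fold changes of 0.11 and 0.12 (edgeR adjusted p = 0.713 and 0.812). LOXL1 averaged 7.65 ± 1.22 against 5.95 ± 1.66 CPM, LOXL2 8.72 ± 2.41 against 6.04 ± 0.817 CPM and LOXL4 1.53 ± 0.162 against 1.31 ± 0.905 CPM, with log2 fold changes of -0.36, -0.53 and -0.22 and unadjusted p-values above 0.05. LOXL2 (890 reads in total) overlaps ENTPD4 (8873 reads) on the same strand. LOXL1 (827 reads) overlaps LOXL1-AS1 (1828 reads) on the opposite strand. The part of ENTPD4 and LOXL1-AS1 in these values was not tested.

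**Figure D5:**
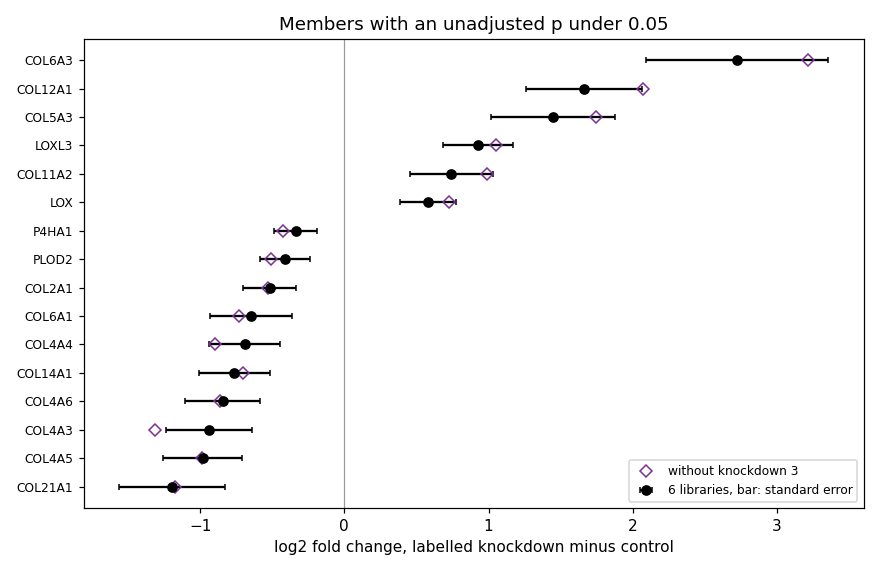
Log2 fold changes of the 16 members with an unadjusted p under 0.05, with their standard errors, and the same values without the library labelled knockdown 3 as open diamonds. None reached an adjusted p of 0.05 on 6 libraries, and all 16 kept their sign without knockdown 3. The 16 were picked by their p on these same libraries. In the 6 higher members knockdown 3 was the lowest of the libraries labelled knockdown, so leaving it out could only raise their values. The kept signs are therefore not a check on these members.

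The calls depended on the tool and on 1 library. Without knockdown 3, edgeR called 9 of 47 tested members (19.1%, against 14.8% of all genes): COL5A3, COL6A3, COL11A2, COL12A1, LOX and LOXL3 were higher and COL4A3, COL4A4 and PLOD3 lower. DESeq2 on 6 libraries called 8 of 46 members (17.4%, against 6.33% of all genes): COL5A3, COL6A3 and LOXL3 were higher and COL4A3, COL4A5, COL4A6, COL14A1 and COL21A1 lower. COL5A3, COL6A3, LOXL3 and COL4A3 stood in both sets. DESeq2 gave no adjusted p for 3 of the 46. With no low-count filter, edgeR called 11 of 51 members (21.6%, against 3.64% of 43251 genes), and with the replicate number as a block 0 (against 0.104% of all genes). Without the filter, the 43251 genes include every gene with any read, while the 51 members had 30 or more. Those shares are therefore not on one scale. The filter and the tool therefore decided whether any member was called on 6 libraries.

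Genes that work with collagens were taken from a list of 78, of which 71 were tested. At an unadjusted p of 0.05, 8 (11.3%, against 9.93% of all genes) were higher and 13 (18.3%, against 10.6%) lower, and edgeR called 0 over all genes. Leaving out 1 library moved these counts: without control 2, 3 were higher and 7 lower, where 4.96% and 5.6% of all genes were. The count of higher partners was 5 without control 1 (6.65% of all genes), 4 without knockdown 1 (6.08%) and 5 without knockdown 2 (10.9%). DESeq2 on 6 libraries called 8 of 71 partners (11.3%, against 6.33% of all genes): DDR2 and THBS1 were higher, and LAMB1, LAMA1, LAMA4, AGRN, MMP15 and FKBP10 lower. Without knockdown 3, edgeR called 15 of 72 (20.8%, against 14.8% of all genes), 5 higher and 10 lower. On 6 libraries, at an unadjusted edgeR p under 0.05, 5 of 16 basement membrane partners (31.25%, against 10.6% of all genes) were lower. In the other direction 0 were higher, against 9.93% of all genes. LAMB1, a laminin beta chain, stood at 120.5, 184 and 179 CPM across controls, with 54.5, 46.7 and 96.4 CPM across labelled knockdown libraries (log2 fold change -1.29 with a standard error of 0.27, adjusted p = 0.078 by edgeR). LAMA1 and LAMA4, laminin alpha chains, averaged 44.3 ± 8.93 against 27.03 ± 3.44 CPM and 185 ± 27.5 against 115 ± 24.9 CPM, and the proteoglycan AGRN 55.6 ± 8.07 against 28.4 ± 12.98 CPM. The groups did not overlap in any of these, as was so for 14.3% of all genes in this direction. NID2, a nidogen that links laminin to collagen IV, averaged 24.9 ± 2.84 against 16.5 ± 5.13 CPM.

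Collagen receptors and the enzymes of breakdown included values in both directions. DDR2, a receptor kinase that binds fibrillar collagen, stood at 7.19, 5.75 and 9.21 CPM across controls, with 18.4, 34.5 and 26.96 CPM across labelled knockdown libraries, above every control in all 3 libraries (log2 fold change 1.85 with a standard error of 0.26, adjusted p = 0.0558 by edgeR). By DESeq2 on the same 6 libraries the adjusted p of DDR2 was 1.83e-08, and without knockdown 3 it was 0.00292 by edgeR. Of 9 receptors tested, DDR2 alone had an unadjusted p under 0.05 (11.1%, against 20.5% of all genes in either direction). MMP15, a membrane-bound metalloproteinase, stood at 46.7, 48.1 and 39.6 CPM across controls, with 9.16, 13.3 and 27.3 CPM across labelled knockdown libraries, and was lower in all 3 (log2 fold change -1.43 with a standard error of 0.32, adjusted p = 0.0874 by edgeR). The collagenases MMP13 and MMP14 averaged 2.87 ± 2.41 against 6.45 ± 2.17 CPM and 3.54 ± 1.16 against 5.66 ± 0.809 CPM, at log2 fold changes of 1.18 and 0.68. For MMP13 the groups overlap, with control 3 at 5.64 CPM and knockdown 3 at 4.22 CPM. Its log2 fold change ran from 0.82 to 2.10 with 1 library left out, highest without control 3. TIMP3, a metalloproteinase inhibitor, averaged 67.4 ± 25.4 against 206 ± 182 CPM, with a log2 fold change of 1.62 and of 0.61 without knockdown 2.

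In the endoplasmic reticulum, P4HB, the shared beta subunit of prolyl 4-hydroxylase, averaged 595 ± 24.7 against 466 ± 53.2 CPM, the prolyl isomerase FKBP10 115 ± 18.4 against 69.3 ± 20.4 CPM and P3H4 61.99 ± 4.29 against 44.8 ± 5.41 CPM. These 3 of 12 modification genes were lower at an unadjusted p of 0.05 and 0 were higher, where 10.6% of all genes were lower. The collagen galactosyltransferase COLGALT1 averaged 112 ± 8.35 against 136 ± 36.7 CPM, P3H2 16.2 ± 3.35 against 17.99 ± 2.79 CPM and FKBP14 63.5 ± 2.45 against 68.4 ± 4.72 CPM, so 3 of the 12 had the higher mean in the libraries labelled knockdown. Among export genes, the COPII coat component SEC24D averaged 25.4 ± 2.51 against 17.8 ± 3.65 CPM and SAR1B, the small GTPase of that coat, 116 ± 2.10 against 163 ± 32.5 CPM, so one was lower and one higher. Of the propeptide-removing enzymes, ADAMTS3 and TLL1 averaged 12.9 ± 3.48 against 7.99 ± 1.04 CPM and 2.92 ± 0.835 against 1.44 ± 0.598 CPM. In the matrix itself, THBS1, a thrombospondin, stood at 17.2, 12.04 and 17.1 CPM across controls, with 107, 66.4 and 18.3 CPM across labelled knockdown libraries (log2 fold change 2.05 with a standard error of 0.48, adjusted p = 0.0913 by edgeR), and TNC, tenascin C, at 78.02, 61.8 and 111 CPM across controls, with 273, 249 and 66.3 CPM across labelled knockdown libraries (log2 fold change 1.23 with a standard error of 0.42, adjusted p = 0.151 by edgeR). Both had the pattern of COL12A1 and COL6A3, high in knockdown 1 and 2 and at or near the controls in knockdown 3. THBS1 was at 1.45 on the log2 scale without knockdown 1. SPARC, a collagen-binding glycoprotein, averaged 125 ± 23.6 against 92.2 ± 5.66 CPM and TNXB 5.49 ± 1.46 against 8.68 ± 2.54 CPM.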

How the data were processed

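Total RNA of HEK293 cells was sequenced in 3 control libraries and 3 libraries labelled as MOCS2 knockdown, after ribosomal RNA removal with a stranded kit (per the labels' protocols). Values were taken from a single deposited table, in which the authors give unnormalized counts of reads by gene. The submitters' processing notes name TopHat2 2.0.13, bcl2fastq 2.18, HTSeq and the build hg38. The HTSeq version and the gene annotation release are not named in the sources used here, nor is the strand option. If strand was ignored, reads of overlapping genes on opposite strands could be mixed or set aside as ambiguous. Ambiguous reads numbered 864902 to 1065384 per library and count to no gene.

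Symbols and exon lengths came from GENCODE 29, which matched 57055 of 60675 gene identifiers, and promoter windows from RefSeq (GRCh38.p14). Rows for reads outside genes stayed out of the library sizes. Counts were fitted with edgeR 4.0.16 (R 4.3.3; quasi-likelihood test, TMM factors, filterByExpr, two-sided, Benjamini-Hochberg adjustment over 18267 genes). The standard error is the size of the log2 fold change divided by the square root of the F statistic. Levels in CPM carry no prior count, and log2 CPM relative to the control mean carry a prior count of 2. Levels per length use merged exons of GENCODE 29, which may differ from the annotation that was counted. These join the exons of all annotated transcripts of a gene, so they can be longer than any single transcript. Single values of 3 against 3 libraries were not tested alone, since an exact two-sided permutation test cannot go below 0.10. The groups have the same replicate numbers, but the labels do not tie these to a shared culture.

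Alternatives were DESeq2 1.42.0, its size factors in edgeR, no filter, at least 1 CPM in 3 libraries, the replicate block and each library left out. The edgeR code was tested on simulated data. There it gave the right signs and an even null, but it missed many changes in genes of low count and its false calls exceeded the nominal rate. The recovery level set at first was missed and was replaced by checks of calibration. Genes named are MOCS2, members with an unadjusted p under 0.05, the 2 members of highest level per length in each role class, and partner genes by smallest p. The other members, the markers and the genes overlapping a member were chosen with their values seen. The members and the gene lists were chosen with earlier results of these data known.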

Additional observations from a re-analysis of the deposited data

Results flagged for a closer look

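Reads that aligned uniquely but to no annotated gene made up 37.5% in the library labelled knockdown 2. In the other 5 libraries the share was 21.5% to 24.95%, controls included. These reads enter no comparison of the collagen genes. Knockdown 2 was also the library whose median collagen level was level with the controls (-0.0025 on the log2 scale), and the part of those reads in that value was not tested.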

How the results depend on the processing

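The number of members called by adjusted p was 0 with edgeR on 6 libraries, where 0% of all genes were called. It was 8 of 46 with DESeq2 (6.33% of all genes) and 11 of 51 with no filter (3.64%, over genes that include those of very few reads). With 1 library left out it was 0 to 9. The 9 of 47 were without knockdown 3, where 14.8% of all genes were called. Members with an unadjusted p under 0.05 numbered 4 to 8 higher and 3 to 15 lower with 1 library left out, against 6 and 10 on all 6. The shares of all genes moved too: those lower were 5.6% without control 2 (3 members), 11.2% without knockdown 2 (15) and 16.4% without knockdown 3 (12), against 10.6%. Those higher were 6.65% without control 1 (4 members), 10.9% without knockdown 2 (8) and 14.7% without knockdown 3 (8), against 9.93%. Partner genes numbered 3 (without control 2, 4.96% of all genes) to 10 higher (without control 3, 7.03%), against 8. Those lower numbered 7 (without control 2, 5.6% of all genes) to 19, against 13. The 19 stood both without knockdown 2 (11.2%) and without knockdown 3 (16.4%). The members' median log2 fold change ran from -0.33 (without knockdown 2) to -0.026 (without knockdown 3). With no filter, the median over all genes moved from 0.017 to 0.12, so member values under that setting are relative to a shifted centre.

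With the replicate number as a block, 0 members were called, and at an unadjusted p under 0.05, 6 members were higher and 11 lower and 7 partner genes higher and 16 lower, where 8.28% and 11% of all genes were. The block called 1 partner, DDR2 (edgeR adjusted p = 0.0455, against 0.0558 without it; 1.83e-08 to 0.359 over its alternatives with a low-count filter). The labels do not tie the number to a shared culture. Same-numbered libraries had deviations that correlated at 0.11, -0.17 and -0.12, and 2 of the 3 controls correlated best with another number. The deviations are from a mean of 3 libraries, so these correlations depend on one another. They cannot show whether the number pairs the samples.

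Signs turned for MOCS2 and for 13 of 66 tested members and named partners, in each case only with 1 library left out. All 13 are members. MOCS2 ran from -0.094 to 0.027 (0.024 without control 2, 0.0046 without control 3, 0.027 without knockdown 2 and 0.019 without knockdown 3). With 1 library left out, the type IV chain COL4A2 ran from -0.14 (without knockdown 1) to 0.34. The type VI chains ran from -0.18 to 0.085 (COL6A2, without control 1) and from -0.61 to 1.16 (COL6A5, lowest without knockdown 2). Lowest without knockdown 2 were also COL16A1 (-0.28 to 0.82), COL26A1 (-0.14 to 0.23), COL28A1 (-0.70 to 0.59), COL3A1 (-0.81 to 0.64) and COL8A1 (-0.52 to 1.14). Without knockdown 3 the sign turned for COL1A1 (-0.20 to 0.38), COL5A2 (-0.15 to 0.18), COL19A1 (-0.81 to 0.089) and LOXL4 (-0.94 to 0.11). COL9A2 ran from -0.58 to 0.13, and turned without control 3 and without knockdown 1. COL26A1 also turned without control 1 (-0.0078), control 3 (-0.0065) and knockdown 3 (-0.0041), COL3A1 without control 3 (-0.0047), COL5A2 without control 1 (-0.028) and COL19A1 without control 2 (0.0072) and knockdown 1 (0.085). The cause was not tested. Values of members under about 1 CPM rest on few reads. A member without a call is not shown to be unchanged.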
